A study of Mus musculus with 6 samples.

Results

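The genes described here are 7 caspases (Casp1, Casp2, Casp4, Casp6, Casp8, Casp9 and Casp12) and Mlkl, the effector of necroptosis. They were taken by gene symbol from the deposited count table and make up 8 of its 52636 genes. The table came from bulk RNA-seq of mouse vestibular epithelium, the balance-sensing tissue of the inner ear. All animals were male 129S1/SvImJ mice aged 2 to 4 months. Treated mice (IDPN, n = 3) drank water with 30 mM 3,3'-iminodipropionitrile, a nitrile toxic to hair cells (HCs), over a period of 8 weeks. Control mice (n = 3) had plain water. Each library came from 1 animal, with its 2 utricles and 6 cristae pooled, so HCs, supporting cells and any adjoining tissue were measured together. P-values therefore reflect the spread between animals. All libraries belonged to a single batch by the labels. The animal codes of all Control mice begin alike and those of the IDPN mice begin otherwise, so an effect tied to that code and an effect of IDPN cannot be told apart.

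Caspases are proteases that cut their targets after aspartate, using a cysteine in the active site. Initiator caspases (caspases 2, 8 and 9) are activated on large adaptor complexes and switch on executioner caspases, which take the cell apart in apoptosis. Inflammatory caspases process cytokines and open gasdermin pores in pyroptosis, while MLKL, once phosphorylated by RIPK3, ruptures the plasma membrane in necroptosis when caspase-8 is not active. Caspases are made as inactive precursors, so RNA levels do not measure their activity. HC loss after ototoxic exposure can take the form of apoptosis, necrosis or extrusion from the epithelium, and transcripts of these genes address whether the machinery of regulated death was altered in the tissue at this dose and time.

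The caspases share a short stretch of coding sequence around the catalytic cysteine. It is shown because it is what the 7 protein products have in common and because paralogs of this kind can compete for reads. Each sequence has 21 bases, read 5' to 3' on the coding strand of the GRCm38 genome, with the codon of the catalytic cysteine in capitals. The reference genome is of another strain than the animals, and the animals' own sequence was not analysed here.
Casp12: atgcaggccTGCagaggcaga
Casp4: gtgcaggccTGCagaggtggg
Casp1: attcaggcaTGCcgtggagag
Casp9: atccaggccTGCggtggtgag
Casp8: attcaggctTGCcaaggaagt
Casp2: atccaagcaTGTcgtggagat
Casp6: atccaggccTGTcggggtagc
Casp4 was closest to Casp12, with the same base at 17 of 21 positions. Casp6 and Casp8 had 15 bases in common with Casp12, Casp9 had 14, Casp1 had 13 and Casp2 had 11. In Casp12 the stretch is split between exons 7 and 8 of 11 and lies within chr9:5353850-5354535. The counting program assigns reads with several matching genes by estimated shares. The 21 bases do not tell how many reads match several genes. For Casp1, Casp4 and Casp12, which are related genes, the uncertainty of the counts from such reads was not measured here.

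A single gene of the 8, Casp12, was called different between the groups, and it was downregulated to 0.437 of the Control level. A call required an adjusted p (Padj) under 0.05 and a fold change over 1.5. In the same comparison 604 of 17650 tested genes were called downregulated (3.42%) and 410 upregulated (2.32%), 5.75% in all. With libraries scaled to their total counts the balance turned, with 214 called downregulated and 609 upregulated. None of the 8 genes was called upregulated, and all 8 had enough counts to be tested. The edgeR quasi-likelihood test also called 0 upregulated and 1 downregulated. At an unadjusted p under 0.05 there was 1 gene higher (Mlkl) and 2 lower (Casp12 and Casp4), beside 16.9% of all tested genes in either direction. Their log2-Fold_Change values (IDPN minus Control) were positive in 4 and negative in 4, with a median of 0.0, beside a median of 0.015 over all tested genes. Casp4 and Mlkl had larger differences than Casp12 on the log2 scale but rested on few counts and did not pass the test.

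**Figure D1:**
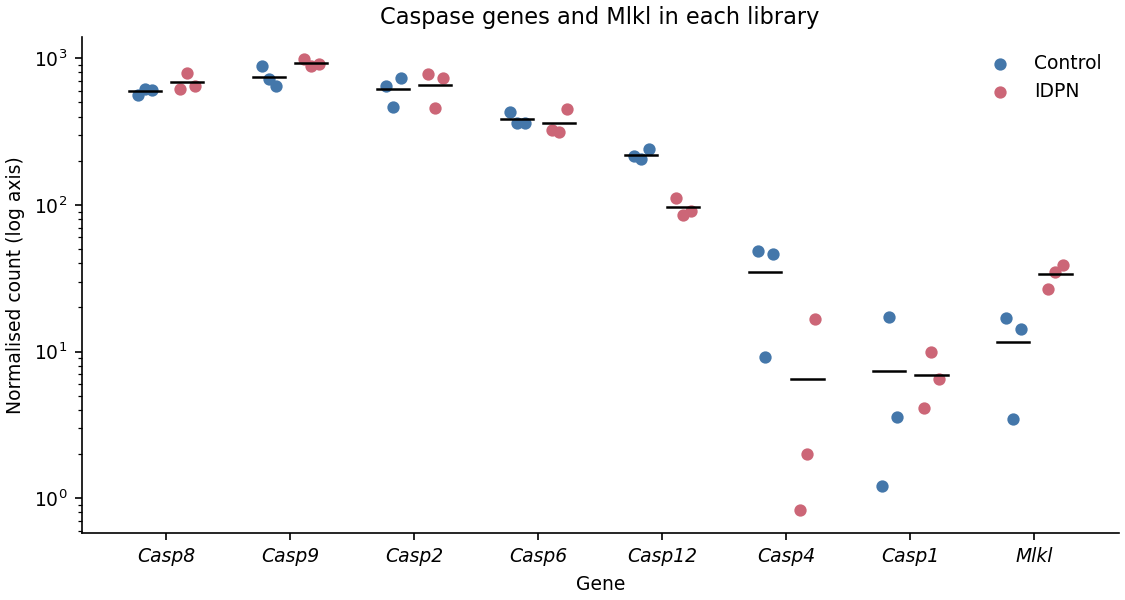
Normalised count of each gene (log axis) in the 3 Control (blue) and 3 IDPN (red) libraries, with points for libraries and black bars for group means. Casp12 lies between 204 and 241 in Control and between 85.3 and 112 in IDPN, while Casp2 and Casp6 intermingle.

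Casp12 is a caspase of the inflammatory subfamily that has been associated with the endoplasmic reticulum. The gene (ENSMUSG00000025887.10) lies on the plus strand at chr9:5345430-5373032 in GRCm38. Its normalised counts, that is counts divided by the library's size factor, were 216, 204 and 241 in the Control libraries and 112, 85.3 and 91.5 in the IDPN libraries. Every IDPN library was below every Control library, with a wide gap between the groups. Control libraries averaged 220 ± 18.8 and IDPN libraries 96.2 ± 13.8 (SD, n = 3 each). The log2-Fold_Change was -1.20 (SE 0.26, 95% interval -1.70 to -0.69, Padj = 0.000244). By unadjusted p it ranked 298 among the 17650 genes tested. The edgeR test gave -1.19 with Padj = 0.021. With libraries scaled to their total counts the log2-Fold_Change was -0.94 and the call was lost (Padj = 0.071). That scaling shifted the median gene by 0.25 towards higher values in IDPN.

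Of the HC markers, 11 had a negative log2-Fold_Change, as Casp12 had. The exception was Myo7a (0.01, SE 0.23, Padj = 0.987). Of 12 HC markers, all were detected and 8 were called downregulated, with a median log2-Fold_Change of -0.72. With total-count scaling 4 of them were called, and by edgeR 7. Their summed normalised counts were 31092 to 35252 in Control and 22064 to 22572 in IDPN. Of 10 supporting cell markers none was called by DESeq2 or edgeR (4 were lower at an unadjusted p under 0.05), with a median of -0.41 and sums of 252726 to 339994 against 192826 to 236820. In bulk tissue, fewer cells of a type and less RNA per cell cannot be told apart, and the part of cell composition in the Casp12 difference was not tested.

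The genes whose pattern across the 6 libraries was most like that of Casp12, by Pearson's r of log2(normalised count + 1) among 11770 genes with a mean normalised count of at least 100, were Maats1 (r = 0.9983), Rflna (r = 0.9983) and Lrrc46 (r = 0.9945). Their log2-Fold_Change values were -0.93, -0.71 and -1.12, respectively. These correlations describe 6 libraries that fall into 2 groups, and a gene with a like group difference and little spread scores high.

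The window around the Casp12 start site is shown because Casp12 was the gene that passed the test. It holds 300 bases of RefSeq sequence on GRCm38.p6, chr9:5345226-5345525, plus strand, from 250 bases before the start to 50 after it. Capitals mark 2 matches of TTCNNNGAA, the core letters of STAT factor sites, searched on both strands, where they read the same.
Casp12: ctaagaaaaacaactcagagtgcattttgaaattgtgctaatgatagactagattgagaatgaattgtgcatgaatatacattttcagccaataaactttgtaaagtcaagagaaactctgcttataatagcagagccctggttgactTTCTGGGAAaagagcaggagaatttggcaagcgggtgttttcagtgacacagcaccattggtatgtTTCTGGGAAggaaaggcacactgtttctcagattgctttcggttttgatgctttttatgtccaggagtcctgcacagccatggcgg
The matches start 102 and 36 bases before the start site. These letters were found in 8.3% of 32851 mouse promoter windows of the same length, and in none of the windows of the other 7 genes. Both windows of Casp4 held matches to an NF-kB motif, which 8.46% of all windows held. An interferon-stimulated response element (3.44% of all windows) and TGACGTCA, the cAMP-response element (1.79%), were in no window of the 8 genes. A match is a description of the letters only.

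Casp1 and Casp4 are the other inflammatory caspases. Casp1 is the protease of inflammasomes that matures interleukin-1 beta, and Casp4 (also known as Casp11) senses intracellular lipopolysaccharide and cuts gasdermin D. Casp1, Casp4 and Casp12 lie side by side on the plus strand within 74.5 kb of chromosome 9, with 1562 bases between Casp1 and Casp4 and 8646 bases between Casp4 and Casp12. Of the counts of the 3 genes together, Casp12 held 81.3%, 88.5% and 82.9% in the Control libraries and 95.7%, 87.6% and 79.7% in the IDPN libraries.

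Casp4 (ENSMUSG00000033538.13, chr9:5308828-5336783) stood at 48.5, 9.23 and 46.3 normalised counts in the Control libraries and at 0.828, 2.01 and 16.8 in the IDPN libraries, from 40, 8 and 52 against 1, 2 and 18 deposited counts. The groups overlapped, since the third IDPN library lay above the second Control library. Control averaged 34.7 ± 22.1 normalised counts and IDPN 6.54 ± 8.9 (SD, n = 3 each). The log2-Fold_Change was -2.41 (SE 0.92, 95% interval -4.21 to -0.61, Padj = 0.101; edgeR Padj = 0.223), which was not called. One library decided this: without the third IDPN library the log2-Fold_Change was -4.65 and the gene was called (Padj = 0.00458). Mice of this strain family are known to carry a Casp4 allele that gives no functional protein, and the genotype of these animals at Casp4 was not analysed here.

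Casp1 (ENSMUSG00000025888.5, chr9:5298517-5307265) was close to the detection limit, at 1.21, 17.3 and 3.56 normalised counts in the Control libraries and 4.14, 10.0 and 6.53 in the IDPN libraries. The IDPN values all lay within the Control range. The log2-Fold_Change was -0.09 with an interval of -2.3 to 2.12 (SE 1.13, Padj = 0.984). Differences of either sign within that interval remained compatible with these few and widely spread counts. The sign was not stable: it was positive without the second Control library (1.49), without the first IDPN library (0.18) and with total-count scaling (0.16).

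The initiator caspases were the most abundant of the 8 genes, and none was called. Casp8 (ENSMUSG00000026029.14, chr1:58795374-58847503), the protease of death receptor complexes that also blocks necroptosis, was at 557, 616 and 609 normalised counts in the Control libraries and at 617, 787 and 649 in the IDPN libraries. The lowest IDPN value exceeded the highest Control value by less than 1 count. The log2-Fold_Change was 0.20 (SE 0.18, 95% interval -0.16 to 0.56, Padj = 0.657).

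Casp9 (ENSMUSG00000028914.13, chr4:141793612-141815976), which is activated on the apoptosome after cytochrome c release, was at 884, 716 and 647 normalised counts in the Control libraries and at 983, 887 and 912 in the IDPN libraries. Again the groups were separate by a small margin, 884 against 887. The log2-Fold_Change was 0.31 (SE 0.18, 95% interval -0.05 to 0.67, Padj = 0.403). The annotation places exons of Cela2a and Ctrc on the opposite strand over 188 exon bases of Casp9 (3.62%), and both of those genes had 0 counts in all 6 libraries.

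Casp2 (ENSMUSG00000029863.13, chr6:42264985-42282508), the caspase of the PIDDosome, was at 646, 464 and 738 normalised counts in the Control libraries and at 775, 459 and 729 in the IDPN libraries. The ranges were nearly the same, and each group had 1 low library. The log2-Fold_Change was 0.09 (SE 0.25, 95% interval -0.39 to 0.57, Padj = 0.920). With the size factors used for the calls, the intervals of the 3 initiators reached no further than 0.67 upwards and -0.39 downwards on the log2 scale. With total-count scaling the values were higher, at 0.44 (SE 0.23) for Casp8, 0.59 (SE 0.22) for Casp9 and 0.34 (SE 0.32) for Casp2. None of the 3 was called there either, and those limits do not hold for that scaling.

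Casp6 (ENSMUSG00000027997.9, chr3:129901425-129914103), an executioner caspase that cuts lamin A, was at 429, 362 and 364 normalised counts in the Control libraries and at 326, 312 and 451 in the IDPN libraries. The groups overlapped, with 2 IDPN libraries below all Control libraries and the third above them. The log2-Fold_Change was -0.08 (SE 0.22, 95% interval -0.52 to 0.35, Padj = 0.913), and it was 0.18 with total-count scaling.

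Mlkl (ENSMUSG00000012519.14, chr8:111311797-111338177, minus strand) was at 17.0, 3.46 and 14.2 normalised counts in the Control libraries and at 26.5, 35.1 and 39.2 in the IDPN libraries. All IDPN libraries were above all Control libraries. Control averaged 11.6 ± 7.14 normalised counts and IDPN 33.6 ± 6.49 (SD, n = 3 each), from 14, 3 and 16 against 32, 35 and 42 deposited counts. The log2-Fold_Change was 1.53 (SE 0.65, 95% interval 0.25 to 2.81), but Mlkl did not pass the test (Padj = 0.165; edgeR Padj = 0.204), and it was not called with any single library left out (1.10 to 1.88, Padj 0.157 to 0.466). Of the 8 genes, Mlkl, Casp8 and Casp9 had groups that did not overlap with IDPN higher, and Casp12 had IDPN lower. Over all tested genes 11.1% had such a separation with IDPN higher and 11.4% with IDPN lower.

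**Figure D2:**
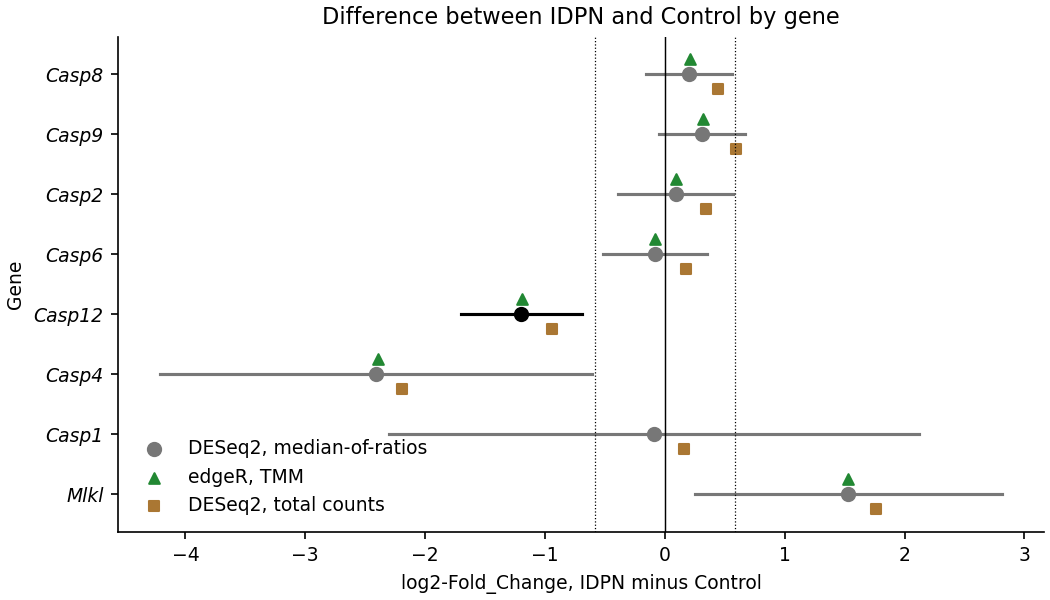
log2-Fold_Change (IDPN minus Control) of each gene with its 95% interval from DESeq2, with the edgeR estimate (triangle) and the estimate with total-count scaling (square); dotted lines mark a fold change of 1.5. Casp12, in black, is the gene that was called, and the intervals of Casp4, Casp1 and Mlkl are the widest.

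Levels of different genes were compared per length, as TPM, the share of all transcripts after correction for gene length, scaled to the same total in each library. In Control the order was Casp8 (9.89 ± 2.26), Casp9 (6.79 ± 0.682), Casp2 (4.27 ± 1.68), Casp6 (3.28 ± 0.503), Casp12 (2.78 ± 0.787), Casp4 (0.461 ± 0.32), Mlkl (0.245 ± 0.158) and Casp1 (0.226 ± 0.248; TPM, SD, n = 3 each). Of neighbours in that order, Casp8 and Casp9 had separate ranges over the libraries, as did Casp12 and Casp4, and the other 5 pairs overlapped. In IDPN the first 5 genes kept their order, at 14.3 ± 0.705 TPM for Casp8, 11.0 ± 2.06 for Casp9, 5.79 ± 2.12 for Casp2, 3.98 ± 0.942 for Casp6 and 1.55 ± 0.432 for Casp12. Mlkl came next at 0.882 ± 0.126 TPM, followed by Casp1 at 0.272 ± 0.0835 and Casp4 at 0.106 ± 0.145. There the ranges of Casp2 and Casp6 and of Casp1 and Casp4 overlapped, and those of the other 5 pairs were separate. The initiators thus stood highest per length in both groups, and the inflammatory Casp1 and Casp4 stood among the lowest 3. Because of that total, the TPM values of a gene in Control and IDPN are not scaled as in the test above.

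The wider machinery around these genes was read from 13 lists by role, with 78 genes. Of these, 60 had a Padj, 3 were called upregulated and none downregulated, beside 2.32% and 3.42% over all genes. The edgeR test called 1 of them upregulated and 0 downregulated, beside 166 and 357 over all genes. At an unadjusted p under 0.05 there were 6 higher and 4 lower, beside 16.9% of all tested genes in either direction. Among the 60 genes, 40 had a positive and 20 a negative log2-Fold_Change, beside 9116 and 8534 over all tested genes. The median of the 60 was 0.18, which is smaller than the shift of 0.25 between the scalings. The 3 genes called were Ripk1, Mcl1 and Zbp1.

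**Figure D3:**
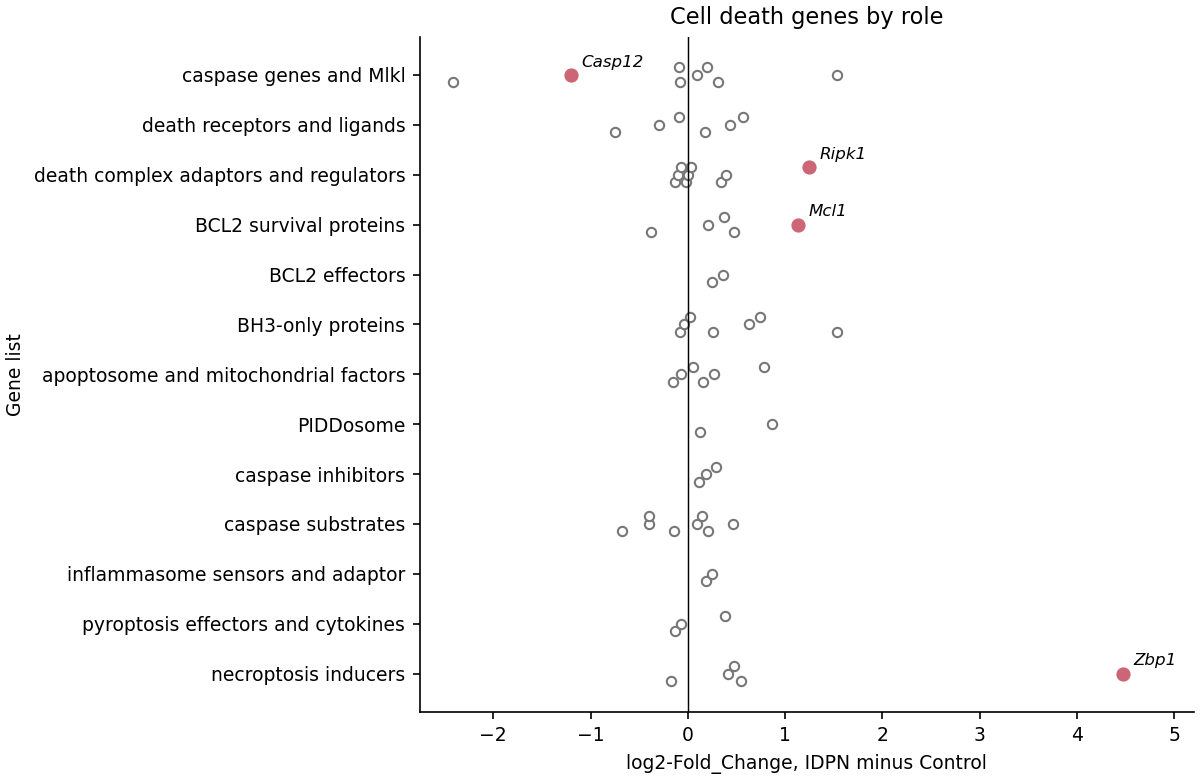
log2-Fold_Change (IDPN minus Control) of genes with a Padj, by list, for the lists described in the text, with called genes filled and named and the others open. Ripk1, Mcl1 and Zbp1 are the genes called upregulated in these lists, and Casp12 is called downregulated among the 8 genes of the top line.

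Ripk1, the kinase and scaffold that sits upstream of both caspase-8 and RIPK3, was at 201, 274 and 364 normalised counts in the Control libraries and at 674, 657 and 664 in the IDPN libraries. The groups were far apart, and the IDPN libraries were nearly equal. The log2-Fold_Change was 1.25 (SE 0.23, 95% interval 0.79 to 1.70, Padj = 6.17e-06; edgeR Padj = 0.0126), and Ripk1 was called in each of the 6 fits with 1 library left out. The other 8 adaptors and regulators of the death complexes were not called. They included Fadd (log2-Fold_Change -0.13, SE 0.21, Padj = 0.85) and Cflar (-0.07, SE 0.15, Padj = 0.894), the adaptor and the caspase-like inhibitor of caspase-8; these 2 were picked for their contact with caspase-8.

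Zbp1, an interferon-inducible sensor of Z-form nucleic acids that engages RIPK3, was at 1.21, 2.31 and 0 normalised counts in the Control libraries and at 4.97, 15.1 and 54.1 in the IDPN libraries. Every IDPN library was above every Control library, and the third IDPN library held most of the counts. The deposited counts summed to 3 in Control and 79 in IDPN, a ratio of 22.6 per size factor with an exact 95% counting interval of 7.47 to 112. This interval covers counting error only, and the reads carry no molecular identifiers. The gene was called (Padj = 0.00909), but it was too low for the edgeR filter, and without the third IDPN library DESeq2 gave it no Padj. Ripk3, the kinase that activates MLKL, had 23.0, 28.9 and 41.8 against 50.5, 57.2 and 30.8 (log2-Fold_Change 0.55, SE 0.48, Padj = 0.639) and was not called. Of the 5 necroptosis inducers, 4 had a positive and 1 a negative log2-Fold_Change, with a median of 0.47, and only Zbp1 was called.

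Mcl1, a survival protein of the BCL2 family, was at 376, 481 and 548 normalised counts in the Control libraries and at 524, 1657 and 899 in the IDPN libraries. The groups overlapped, and the second IDPN library stood far above the others. The log2-Fold_Change was 1.13 (SE 0.32, Padj = 0.00999), edgeR gave Padj = 0.121, and without the second IDPN library the values were 0.60 and Padj = 0.251. Mcl1 was called in 1 of the 6 fits with a library left out. The remaining 4 survival genes with a Padj were not called, and of these Bcl2 alone was lower in IDPN (log2-Fold_Change -0.38, SE 0.16, Padj = 0.144).

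In the other lists no gene was called, and the gene with the lowest p is given for those described here. On the mitochondrial route these were the pore former Bax (log2-Fold_Change 0.36, Padj = 0.372), the caspase-8 substrate Bid (0.74, Padj = 0.394) and the mitochondrial nuclease Endog (0.78, Padj = 0.249). Endog passed the test in 1 of the 6 fits with a library left out. Pidd1, the scaffold that activates caspase-2, had 0.87 (Padj = 0.376), and Xiap, a direct inhibitor of caspases, had 0.19 (Padj = 0.67). Among substrates the phospholipid scramblase Xkr8 had -0.68 (Padj = 0.195), and among receptors Tnfrsf21 had -0.30 (Padj = 0.254).

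On the pyroptosis side, Gsdmd, the pore-forming substrate of caspases 1 and 11, had a log2-Fold_Change of 0.38 (SE 0.29, Padj = 0.577). Of the 10 inflammasome sensors and adaptor, 8 had too few counts for a Padj, 2 of which had 0 counts in all libraries. Naip2, a sensor of bacterial secretion systems, was listed at 0, 0 and 0.89 normalised counts in Control and 17.4, 5.02 and 6.53 in IDPN. The deposited counts summed to 1 and 33, a ratio of 28.4 with a counting interval of 4.75 to 1150. Naip2 had no Padj and belongs to a family of near-identical copies, so its counts are uncertain.

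Interferon response genes were upregulated beside the genes that were higher in IDPN. Of 25 interferon response genes, 17 were called upregulated with a median log2-Fold_Change of 1.62, and their summed normalised counts were 9808 to 11004 in Control and 17187 to 50542 in IDPN. Of 15 macrophage markers, all detected, 13 had a positive log2-Fold_Change, 6 were higher at an unadjusted p under 0.05 and 1 was called upregulated (Fcgr1), with a median of 0.55 and sums of 2614 to 3438 against 3148 to 4582. Fcgr1 was not called by edgeR (Padj = 0.0923) and was called in 1 of the 6 fits with a library left out. Neutrophil markers were low, with sums of 21.8 to 38.1 and 21.5 to 68.3 over 7 genes, of which 1 had no counts. The highest by mean was Csf3r, at 21.8, 3.46 and 17.8 in the Control libraries and 35.6, 30.1 and 20.5 in the IDPN libraries. Csf3r was not called (Padj = 0.503). Of 8 lymphocyte markers, Cd79a was at 124 to 226 in Control and 111 to 164 in IDPN. The other 7 were near 0 and had no Padj. Of the T cell markers, Cd8a was at 0 in all Control libraries and at 5.79, 5.02 and 1.87 in the IDPN libraries. The groups overlapped for Cd3e (means of 0.593 in Control and 0.622 in IDPN), Cd3g (0.809 and 3.13) and Cd4 (4.97 and 4.48). Endothelial markers had 1 of 6 called downregulated (Kdr), while at an unadjusted p under 0.05 there were 2 higher (Tie1 and Tek) and 1 lower. With total-count scaling Kdr was not called (Padj = 0.078) and Tie1 was called upregulated (Padj = 0.0323). None of 6 stromal and 5 Schwann cell markers was called by DESeq2 or edgeR. At an unadjusted p under 0.05, 1 stromal marker was higher and 2 Schwann cell markers were lower. The part of immune cells or of the interferon response in the values of Mlkl, Zbp1 and Ripk1 was not tested.

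Casp12 kept its call with each of the 6 libraries left out in turn, with log2-Fold_Change values of -1.31 to -1.12 and Padj of 0.000791 to 0.00538. Ripk1 behaved likewise in the opposite direction. Casp4 ranged from -4.65 to -1.87 over the same fits and was called in 1 of them.

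**Figure D4:**
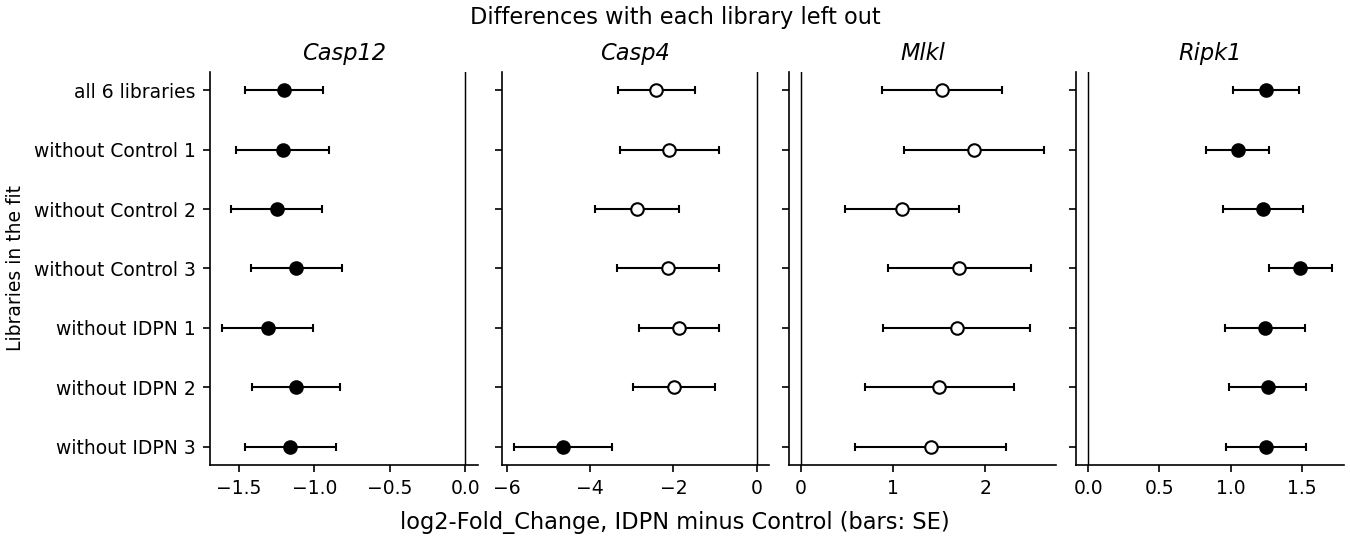
log2-Fold_Change (IDPN minus Control) with its SE for Casp12, Casp4, Mlkl and Ripk1, with all 6 libraries and with each one left out; filled points were called. Casp12 and Ripk1 are filled throughout, Mlkl is open throughout, and Casp4 is filled only without the third IDPN library.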

How the data were processed

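The authors aligned reads with STAR 2.5.3a to GRCm38 and made estimated counts (expected counts) per gene with RSEM 2.3.0 on a GENCODE annotation, with versions from the submitters' processing notes. The deposited values are whole numbers without normalization. Libraries were made by SMART-seq2 from 6 to 11 ng of RNA with 8 and 12 PCR cycles and without molecular identifiers or strand. Total counts were 40474847 to 43566332 per library.

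All genes were fitted with DESeq2 1.42.0 (Wald test, median-of-ratios size factors, R 4.3.3) on the 3 Control and 3 IDPN libraries, and p-values were adjusted over all tested genes (Benjamini-Hochberg). Genes were called at Padj under 0.05 and fold change over 1.5. Alternatives were edgeR 4.0.16 (quasi-likelihood, TMM), total-count scaling, a minimum of 10 counts in 3 libraries, independent filtering or the Cook filter off, protein-coding genes only, and each library left out. The scripts were tested on simulated data. TPM was computed from the counts and union exon lengths of a later GENCODE release of the same build (99.6% of genes matched), with the longest transcript as the alternative.

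The 8 genes and all lists were chosen with earlier results of these data known. Named genes were the 8 genes, every called gene of the pathway lists, the gene of lowest p in lists without a call, and the 3 genes most similar to a called member. The genes of 1 list are counted but not reported here by name. Fadd, Cflar and Ripk3 were named beside these for their roles, after their values had been seen. Bcl2 and single marker genes were also named after their values had been seen.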

Additional observations from a re-analysis of the deposited data

How the results depend on the processing

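With total-count scaling Casp12 was lower by less (-0.94, Padj = 0.071) and 0 of the 8 genes were called downregulated, Casp1 (0.16) and Casp6 (0.18) changed sign, and over all genes 214 were called downregulated in place of 604 and 609 upregulated in place of 410. The edgeR test called 166 genes upregulated and 357 downregulated, and 1 cell death gene upregulated in place of 3. With each library left out in turn, genes called downregulated among the 8 numbered 1 to 2 (2 without IDPN 3), cell death genes called upregulated 1 to 3 (1 without IDPN 3), and all genes called upregulated 234 to 611 (243 without Control 1, 246 without Control 2, 234 without IDPN 2, 265 without IDPN 3). Over the same fits the log2-Fold_Change ranged from -0.59 to 1.49 for Casp1, -0.09 to 0.29 for Casp2, -4.65 to -1.87 for Casp4 (called without IDPN 3) and -0.27 to 0.01 for Casp6. Over the 94 values of the 8 genes under all alternatives, 7 changed sign, 1 lost and 1 gained a call, and the cause was not tested. Casp1 was too low for the edgeR filter and gave no value there. With the longest transcript the Control levels were 7.14 TPM for Casp2, 3.92 for Casp6, 7.58 for Casp9 and 0.752 for Casp4, in the same order of the 8 genes. Casp1, Casp4 and Mlkl had under 100 normalised counts in every library and the widest intervals. No paired analysis was possible because the labels give no replicate numbers, and the numbers used here only name libraries.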
